A study of Mus musculus with 48 samples.

Results

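In mouse limb skeletal progenitors, 2418 sites carried a called peak of H3K4me1 in every Ptip knockout (KO) list and in no wild-type (WT) list. H3K4me1 is monomethylation of lysine 4 on histone H3. The 6 H3K4me1 peak lists, 1 per population and genotype, were merged wherever peaks shared 1 base or more. This gave 177884 merged regions, of which the 2418 gained sites were 1.36%. The sites were therefore chosen by the presence of H3K4me1 peaks, and their H3K4me1 values are given as a description with no test. The mirror pattern, a peak in all 3 WT lists and no KO list, held 146 regions. All 6 lists shared 52028 regions.

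The KO mice carried Ptipf/f;Col2a1-cre and the WT mice Ptipf/f, so both genotypes shared the floxed Ptip alleles and the C57BL/6 strain. Limbs were taken at postnatal day 3, and cells were sorted into 3 populations: skeletal stem cells (SSC), BCSP (bone, cartilage and stromal progenitors) and pBCSP, the pre-stage of BCSP. Per population and genotype there was 1 list each for H3K4me1 and H3K4me3, and there were 2 libraries each for H3K27ac and RNA. Cre was under Col2a1 control, the gene of the main cartilage collagen, and no group carried Cre without the floxed alleles. The labels do not tie replicates to separate animals, so p-values reflect only how far these samples spread, and that spread may be technical. Paxip1, the current name of Ptip, was at 0, 0.457 and 3.48 CPM (lowest, median and highest of 6 KO libraries), against 7.25, 12.5 and 14.6 CPM in WT libraries. CPM is the count of a gene relative to the size of its library after TMM scaling. Col2a1 itself ran from 23098 to 42315 CPM in KO libraries and from 21136 to 58089 CPM in WT libraries, and Sox9, the transcription factor that defines cartilage progenitors, from 2611 to 4056 CPM in KO libraries and from 1242 to 4338 CPM in WT libraries.

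H3K4me1 marks enhancers and the flanks of promoters, and in mammals is placed largely by the methyltransferases Kmt2c and Kmt2d. H3K4me3, the trimethylated form, marks promoters, and H3K27ac, acetylation of lysine 27, marks promoters and enhancers in use. Ptip is an adaptor protein that is found in the complexes of Kmt2c and Kmt2d. An H3K4me1 site without H3K27ac is commonly described as a poised or primed enhancer.

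Where a gained site held an annotated promoter, its sequence differed in CG content with the H3K4me3 at the site. Of the 2418 sites, 59 enclosed a whole RefSeq promoter window of GRCm38.p6, which runs from 250 bases before to 50 bases after a transcription start. Windows in sites with H3K4me3 in all 6 lists held a median of 19 CG dinucleotides (n = 25, range 2 to 50), those in sites with H3K4me3 in no list a median of 4 (n = 23, range 0 to 10), and those in between a median of 8 (n = 11, range 3 to 26). Over all RefSeq genes of the table the median was 7 (n = 27025, 1 window a gene), and inside regions shared by all 6 H3K4me1 lists it was 10 (n = 5447). These last windows were not split by H3K4me3, so whether the difference is particular to gained sites was not tested. The 5 windows below were chosen after their values were seen. They show a promoter of a gene that rose in KO RNA (H2-DMb1), one with H3K4me3 in KO lists and no WT list (Fam110a), a Hox promoter with H3K4me3 in all 6 lists (Hoxb4), the window with the most CG dinucleotides (Grik3) and 1 of the windows with none (Xpnpep2). Each reads 5′ to 3′ on the strand of its gene, with every CG in capitals.
H2-DMb1 promoter, chr17:34152941-34153240, plus strand: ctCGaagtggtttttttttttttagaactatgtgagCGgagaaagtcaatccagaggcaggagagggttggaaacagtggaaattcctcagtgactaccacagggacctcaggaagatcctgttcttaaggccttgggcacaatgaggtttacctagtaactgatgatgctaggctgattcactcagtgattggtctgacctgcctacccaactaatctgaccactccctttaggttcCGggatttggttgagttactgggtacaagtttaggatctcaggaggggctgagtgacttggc
Fam110a promoter, chr2:151973345-151973644, minus strand: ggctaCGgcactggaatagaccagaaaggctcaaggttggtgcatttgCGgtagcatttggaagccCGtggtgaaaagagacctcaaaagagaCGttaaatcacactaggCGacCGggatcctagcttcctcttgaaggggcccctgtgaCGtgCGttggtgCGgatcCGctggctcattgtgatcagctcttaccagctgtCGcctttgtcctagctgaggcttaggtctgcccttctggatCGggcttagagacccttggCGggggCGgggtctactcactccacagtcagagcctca
Hoxb4 promoter, chr11:96318017-96318316, plus strand: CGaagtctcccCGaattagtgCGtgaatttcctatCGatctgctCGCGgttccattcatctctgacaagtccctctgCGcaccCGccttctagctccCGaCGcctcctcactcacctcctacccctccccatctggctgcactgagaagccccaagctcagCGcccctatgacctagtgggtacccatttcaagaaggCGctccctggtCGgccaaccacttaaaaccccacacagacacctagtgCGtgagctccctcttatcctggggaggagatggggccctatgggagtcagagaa
Grik3 promoter, chr4:125490446-125490745, plus strand: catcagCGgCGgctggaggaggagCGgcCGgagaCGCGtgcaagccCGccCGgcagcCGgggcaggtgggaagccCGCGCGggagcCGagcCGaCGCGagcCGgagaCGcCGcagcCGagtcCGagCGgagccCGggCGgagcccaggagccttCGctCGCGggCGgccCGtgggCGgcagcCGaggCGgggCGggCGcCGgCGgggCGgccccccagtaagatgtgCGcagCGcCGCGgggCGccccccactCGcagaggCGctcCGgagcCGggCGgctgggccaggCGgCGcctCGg
Xpnpep2 promoter, chrX:48108475-48108774, plus strand: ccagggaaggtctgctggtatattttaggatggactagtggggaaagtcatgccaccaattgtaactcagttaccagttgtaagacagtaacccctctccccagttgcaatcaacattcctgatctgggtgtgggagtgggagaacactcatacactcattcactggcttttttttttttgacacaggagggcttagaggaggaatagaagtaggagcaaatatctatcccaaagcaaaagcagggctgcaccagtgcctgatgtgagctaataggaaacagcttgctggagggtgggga
The H2-DMb1 window has 3 CG dinucleotides and a GC content of 47.3%, and its site had H3K4me3 in 1 KO list and no WT list. The Fam110a window has 14 and its site had H3K4me3 in 2 KO lists and no WT list. Grik3, which encodes a kainate-type glutamate receptor subunit, has 50 and a GC content of 82%. Hoxb4, a transcription factor of the body axis, has 14. Xpnpep2, a membrane aminopeptidase gene on the X chromosome, has 0, and its site had no H3K4me3 in any list.

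**Figure D1:**
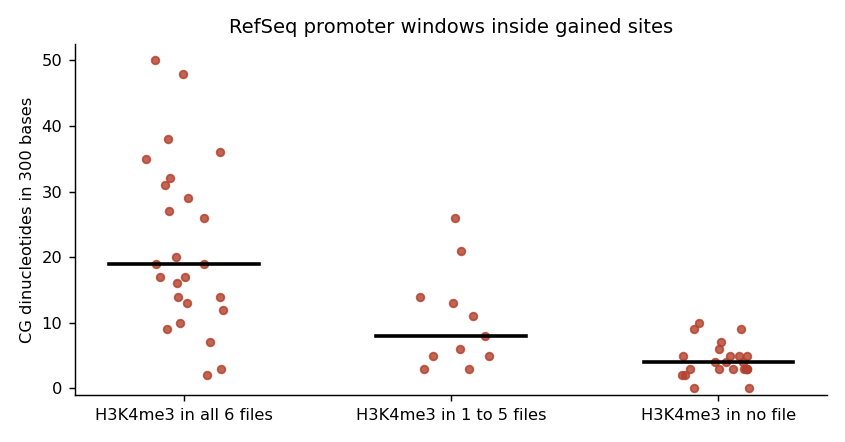
CG dinucleotides in the 300-base RefSeq promoter windows that lie wholly inside gained sites, by the number of H3K4me3 lists with a peak on the site. Each point is 1 site and the bar is the median. The 25 windows with H3K4me3 in all 6 lists have a median of 19 and the 23 with none a median of 4.

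Both strands of the 59 windows were searched for 5 short motifs. TGANTCA, the AP-1 motif, was in 13 windows (22%), against 7.97% of windows inside shared regions and 7.93% of all windows. TGTGGT, the RUNX motif, was in 10 (16.9%, against 16.4% and 16.9%). ACAANG, a loose form of the SOX motif, was in 30 (50.8%, against 39.1% and 41.6%). GGAATG (TEAD) was in 10 (16.9%, against 15.5% and 14.6%) and CAGCTG (E-box) in 15 (25.4%, against 20.3% and 16.1%). The motif letters do not contain one another, and these matches are descriptions with no test. Sequence outside these windows was not used here.

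The H3K4me1 peaks at the gained sites were weak within their own lists. Fold enrichment over background, as the authors' peak caller gave it, had a median of 2.87 in SSC KO, 2.78 in pBCSP KO and 2.82 in BCSP KO at the gained sites, against 3.26, 3.12 and 3.10 over the whole lists. The median gained-site peak stood at percentile 20.9, 27.6 and 31.5 of its list in these 3 populations. A -log10 q of 3 or more was reached by 5.41% of the gained-site peaks in SSC KO (36.7% of that list), 10.4% in pBCSP KO (41.6%) and 12.1% in BCSP KO (35.9%). The sites had a median merged width of 1080 bases (range 321 to 4465), against 1157 bases for all merged regions, 1293 bases for regions with 3 KO peaks and 1 WT peak, 2486 bases for regions shared by all 6 lists and 820 bases for the 146 regions in WT lists only. A median of 306 bases lay under all 3 KO peaks, and at 180 sites the 3 peaks were chained together with no base in common. Across the sites the fold in SSC KO was nearly unrelated to that in pBCSP KO (Spearman's rho 0.0676) and in BCSP KO (0.056), and weakly related between pBCSP KO and BCSP KO (0.191). Over the shared regions the same 3 values were 0.504, 0.456 and 0.612. These are descriptions over 2418 and 52028 regions that share libraries. The rule leaves mostly weak peaks, with quartiles of fold of 2.72 and 3.09 in SSC KO. Such a limited range can lower rho by itself, so the values of the gained and the shared regions are not like for like.

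**Figure D2:**
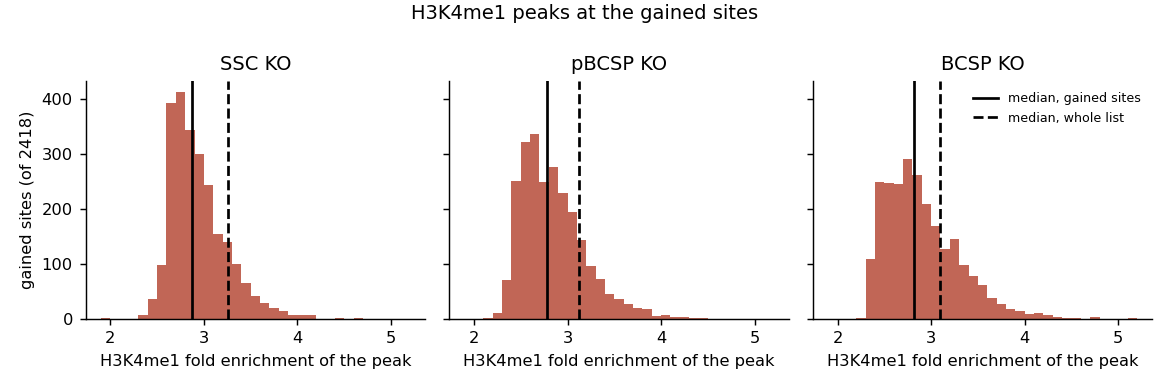
Fold enrichment of the H3K4me1 peaks at the 2418 gained sites in the 3 KO lists (where a site has several peaks in a list, the highest). Solid lines are the medians over gained-site peaks (2.87, 2.78 and 2.82) and dashed lines the medians of the whole lists (3.26, 3.12 and 3.10), and in each list the solid line is left of the dashed one.

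Among the 10 sites whose weakest KO peak was strongest, 6 had the start of a coding gene as the nearest start. The first was chr11:76763736-76764074, centred 327 bases upstream of Gosr1, a Golgi SNARE protein, with folds of 4.67 in SSC KO, 3.81 in pBCSP KO and 3.61 in BCSP KO. The second was chr5:52741024-52741557, 284 bases upstream of Pi4k2b, a lipid kinase, with folds of 3.81, 3.74 and 3.59 in the same order. The other 4 of these were at Pcolce2, an enhancer of procollagen processing, whose site chr9:95664178-95664993 lies inside the gene (3.46, 3.82 and 3.81), at Xpo1, the nuclear exporter (3.69, 3.38 and 3.57), at Agxt, a liver aminotransferase (3.37, 3.82 and 3.64), and at Cdkn2aip (4.2, 3.35 and 3.43). The remaining 4 were nearest to the long non-coding RNA genes Gm6288, A930007I19Rik, 4930511E03Rik and Gm30350, and the middle of the Gm6288 site also lies 277 bases from the start of the coding gene Ccdc91. Of these 10 sites, 5 also carried H3K4me3, in KO and WT lists alike. Of their nearest genes 7 were tested for RNA as described below and none passed. Agxt and 4930511E03Rik had too few counts to be tested, and Gm30350 was not matched to the count table.

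Of the 5 sites with the most bases under all 3 KO peaks, 4 are described here. They were in Vapb, which tethers the endoplasmic reticulum (1674 bases), near Gm32067 (1619 bases), in Etl4 (1571 bases) and in Irx4, a homeobox gene (1559 bases). Their folds were between 2.5 and 3.38. The Irx4 site, chr13:73262547-73264633, had H3K4me3 in 2 KO lists and 3 WT lists, and Irx4 had a CPM of 0 in all 12 RNA libraries. The Etl4 site had H3K4me3 in SSC KO and BCSP KO only.

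The rule has a sharp edge. Just inside it, the 3 sites with the lowest weakest fold were chr17:13554955-13556299 (folds of 1.97, 2.22 and 2.42 in SSC KO, pBCSP KO and BCSP KO), chr12:77851939-77853100 (2.42, 2.19 and 4.42) and chr4:57185520-57186635 (2.7, 2.24 and 2.49). Just outside it, 7599 regions had a peak in all 3 KO lists and in 1 WT list, which was pBCSP WT for 4623, BCSP WT for 2801 and SSC WT for 175. The 3 of them with the weakest WT peak were chr17:39846576-39848579 (WT fold 1.58), chr4:147124738-147125695 (2.24) and chr2:148360899-148362266 (2.28). The median fold of the single WT peak was 3.13 in pBCSP WT, 3.2 in BCSP WT and 3.04 in SSC WT. Gained sites were mostly close to WT peaks: the median distance to the nearest WT H3K4me1 peak was 4032 bases, 72.5% were within 10000 bases, and 1.61% were over 100000 bases away.

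The number of sites that the rule finds moved with the lengths of the lists. KO lists held 115704, 137117 and 148530 peaks in SSC, pBCSP and BCSP, and WT lists 75277, 120792 and 113313 in the same order. SSC WT stood apart, with 5 peaks at a -log10 q of 5 or more, against 4592 to 14112 in the other 5 lists. With each list cut to its strongest 75277 peaks the rule found 936 sites and the mirror pattern 608, and 82 of the 2418 sites (3.39%) were among the 936. With all lists restricted to a -log10 q of 5 or more it found 403 sites and 0 mirror regions, and these held 0 of the 2418 sites. Both counts of 0 were largely set by the cutoff, so nothing is read from them. SSC WT kept only 5 peaks, and with only the KO lists so restricted the rule found 0 sites. When the SSC pair was left out the count was 13387, with a mirror count of 1747. Without pBCSP the counts were 9616 and 590, and without BCSP 6971 and 751. The part of list length and of SSC WT in the gained pattern beyond these counts was not tested.

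The sites were spread over all chromosomes. The X chromosome held 87 gained sites (3.6%), against 3.71% of the regions with 1 WT peak, 2.23% of all merged regions, 353 shared regions (0.678%) and 1 of the 146 WT-only regions (0.685%). The X share of the gained sites was therefore close to that of the regions just outside the rule. On the other chromosomes shares of the gained sites were between 2.52% (chromosome 19) and 8.31% (chromosome 2), and 1 site was on Y, chrY:1282098-1285090 in the RNA helicase gene Ddx3y, with H3K4me3 in 3 KO lists and 1 WT list. X-linked sites had a median width of 1147 bases, against 1077 on chromosomes 1 to 19, and a median fold of the weakest KO peak of 2.6, against 2.62. They carried H3K4me3 in any list more often, at 34 of 87 sites (39.1%), against 14.8% on chromosomes 1 to 19. The KO H3K4me1 lists held 1768, 2673 and 3150 peaks on X in SSC, pBCSP and BCSP, and the WT lists 570, 2075 and 1476. On Y there were 4, 8 and 10 in KO lists and 0, 4 and 0 in WT lists. Xist, the RNA of the inactive X in females, was between 0 and 1.83 CPM in the 6 KO RNA libraries. In WT it was at 9.74, 13 and 14.4 CPM in replicate 1 of SSC, pBCSP and BCSP and at 0 in the other 3 libraries. Ddx3y was between 111 and 188 CPM in KO libraries, against 77.9, 86.6 and 81 CPM in the same 3 WT libraries and 145 to 204 CPM in the others. Whether the ChIP libraries differed in sex the same way was not tested. Without X and Y the rule gives 2330 sites.

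**Figure D3:**
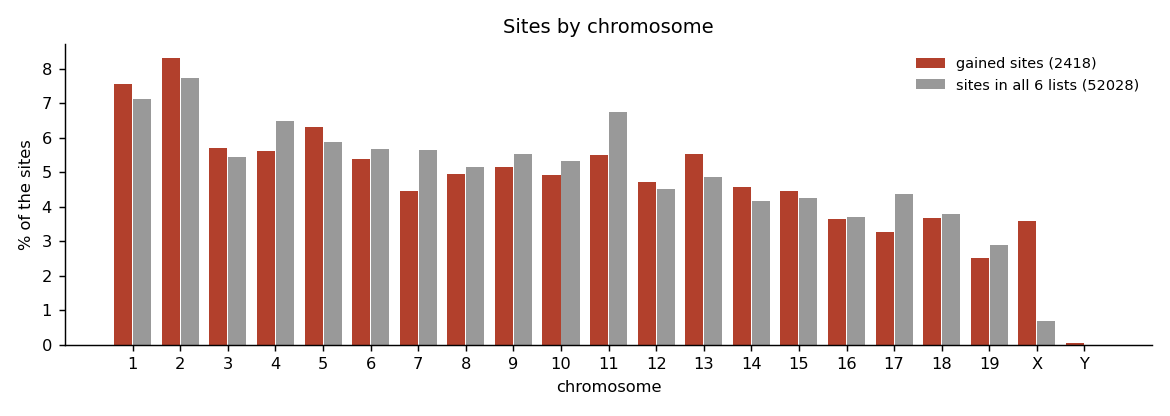
Share of the 2418 gained sites and of the 52028 regions shared by all 6 lists on each chromosome, in percent of the sites. Bars start at 0. The X chromosome holds 3.6% of the gained sites and 0.678% of the shared regions, and of regions not drawn here it holds 3.71% of those with 1 WT peak and 2.23% of all merged regions.

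Most gained sites lay far from gene starts, as most merged regions did. The middle of a site was a median of 33259 bases from the nearest RefSeq start, against 18503 bases for shared regions, 29861 bases for regions with 1 WT peak and 28564 bases for all merged regions. A start lay inside 70 sites (3.01%), against 5.34% of all merged regions and 11.6% of shared regions. Within 1000 bases of a start were 134 sites (5.75%), against 7.56% of all merged regions and 12.3% of shared regions. Coding genes held the middle of 52.9% of the sites, against 53.3% of all merged regions, 51.3% of regions with 1 WT peak and 60.6% of shared regions. The 146 WT-only regions were at a median of 26112 bases from a start, with 1 start inside. The 89 sites on chromosome 18 were not assigned a gene here. Nearest starts within 100000 bases gave 1797 sites a gene and named 1661 genes, of which 124 were nearest to 2 sites and 6 to 3. The 6 were Tab2, a kinase adaptor of cytokine signalling, Ccser2, Ltbp1, which binds latent TGF-beta in the matrix, Pakap, Arap2 and Gm39208. At Ltbp1 all 3 sites were inside the gene, and at Arap2 a pair of sites flanked the start, both with H3K4me3 in all 6 lists. In the Ltbp1 site chr17:75033459-75034852 the 3 KO peaks had no base in common.

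Most of the gained sites had no H3K4me3. A peak was on 13.5% of sites in SSC KO, 6.95% in pBCSP KO and 11.8% in BCSP KO, against 8.19%, 7.03% and 9.22% in the WT lists of the same populations. No list had one on 2038 sites (84.3%). All 6 lists had one on 140 sites, which were narrow (median 874 bases) and near starts, with 52.2% within 1000 bases of one. H3K4me3 was in KO lists and no WT list at 135 sites, mostly in 1 KO list (104 sites), and in WT lists and no KO list at 5. Of regions with 1 WT H3K4me1 peak, 19.6% had H3K4me3 in SSC KO, 12.3% in pBCSP KO and 19.3% in BCSP KO. The WT values were 14.2%, 13.2% and 15%, so SSC and BCSP leaned towards KO there too. The part of list length in the 135 against 5 was not tested. A peak in any list was on 15.7% of the gained sites, 64.2% of shared regions, 23.6% of the regions with 1 WT peak and 6.16% of the WT-only regions.

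As a share of the H3K4me3 list, 0.771% of SSC KO peaks lay on gained sites (95% Wilson interval 0.692% to 0.859%), 0.656% of pBCSP KO peaks (0.564% to 0.763%) and 0.74% of BCSP KO peaks (0.659% to 0.831%). The WT shares were 0.588% in SSC (0.512% to 0.676%), 0.591% in pBCSP (0.508% to 0.686%) and 0.691% in BCSP (0.606% to 0.788%). These intervals cover counting error within 1 list and not the spread between libraries, so they do not compare genotypes. KO was higher in all 3 populations, by a mean of 0.0993 percentage points (SD 0.0733 over 3 pairs). The two-sided exact sign-flip permutation test gave p = 0.25, which is the smallest value that 3 pairs allow. The KO lists held 42399, 25468 and 38500 H3K4me3 peaks in SSC, pBCSP and BCSP, and the WT lists 33510, 28612 and 32132. In pBCSP, where the KO list is the shorter, the share of sites with a peak was lower in KO.

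The 5 sites with H3K4me3 in all 3 KO lists and no WT list are named after their values were seen. At chr15:43165105-43167579, inside Rspo2, a Wnt agonist needed for limb growth, the H3K4me3 folds were 9.78 in SSC KO, 9.12 in pBCSP KO and 14.6 in BCSP KO, at percentiles 66.8, 51.9 and 73.4 of their lists. At chr5:76539522-76541362, inside Exoc1, a subunit of the exocyst, they were 3.51, 4.22 and 8.25. The other 3 sites, at Htr1f, Gm40124 and Gm33968, had folds between 2.92 and 4.78, low in their lists. Exoc1 RNA ran from 10.5 to 18.1 CPM in KO libraries and from 18.9 to 25.6 CPM in WT libraries. These groups did not overlap, but the difference of -0.60 ± 0.21 log2 (SE) did not pass (adjusted p = 0.167, edgeR quasi-likelihood test). How many of all genes tested have groups without overlap was not counted, here or for the genes below.

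Few gained sites had an H3K27ac peak. Of the 2418 sites, 30 (1.24%) had an H3K27ac peak in any of 12 libraries, against 22.3% of shared regions, 2.75% of regions with 1 WT peak and 0.685% of the 146 WT-only regions. A KO library had one at 19 sites and a WT library at 15. In the first set of libraries, 1 of 2203 peaks lay on gained sites in SSC KO, 4 of 4783 in pBCSP KO and 13 of 7951 in BCSP KO, against 0 of 1828, 7 of 6879 and 3 of 6236 in WT. In the second set the counts were 0 of 1119, 0 of 1105 and 6 of 8572 in KO, against 0 of 137, 4 of 3811 and 2 of 785 in WT. The counts of 0 allow shares of up to 0.268% and 0.271% in SSC KO and pBCSP KO of the second set, and of up to 0.164% and 2.19% in SSC WT of the first and second sets. Shares of the list were higher in KO in 2 of 6 pairs, lower in 3 and equal in 1. They averaged 0.0604% in KO and 0.0849% in WT, a difference of -0.0245 percentage points (SD 0.107 over 6 pairs). The two-sided exact sign-flip permutation test gave p = 0.625, where the smallest value for 6 pairs is 0.0312. The sign turned to 0.00754 without the BCSP pair of the second set, and 0.0476 was the difference in the first set alone.

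**Figure D4:**
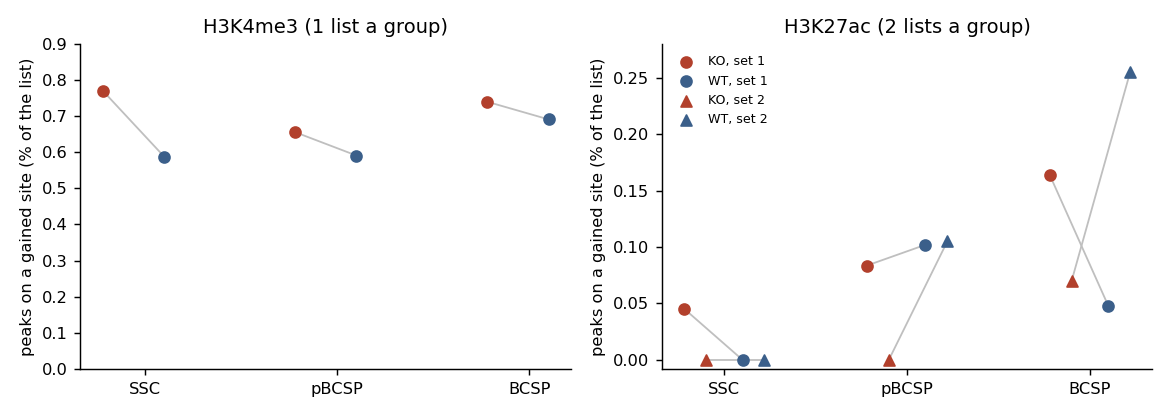
Percent of each H3K4me3 list (left) and H3K27ac list (right) whose peaks lie on a gained site, KO left of WT in each population. Grey lines join lists of the same population and set. All 3 H3K4me3 pairs are higher in KO, between 0.656% and 0.771% against 0.588% and 0.691%, and the H3K27ac pairs go both ways between 0% and 0.255%.

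The site with H3K27ac in both BCSP KO libraries was chr9:72705381-72707859, inside Nedd4, a ubiquitin ligase. Its H3K27ac folds were 3.89 and 4.78, at percentiles 44.2 and 18.6 of their lists. The site had 98 bases under all 3 KO H3K4me1 peaks. It had no H3K27ac in any WT library and no H3K4me3. Nedd4 RNA ran from 552 to 617 CPM in KO libraries and from 315 to 519 CPM in WT libraries, which did not overlap. The difference of 0.53 ± 0.18 log2 did not pass in edgeR (adjusted p = 0.155). Another 3 sites had H3K27ac in 2 KO libraries. At chr6:113376989-113377447, inside Tada3, a subunit of histone acetyltransferase complexes, the KO folds were 3.72 in pBCSP and 5.57 in BCSP, and pBCSP WT had a fold of 5.1. At chr15:37134946-37136385, which holds the start of Gm41301, the KO folds were 3.57 in pBCSP and 4.66 in BCSP, against 3.78 in pBCSP WT. Both of these sites had H3K4me3 in all 6 lists. At chr14:118981677-118983125, inside Uggt2 and nearest to Dnajc3, a chaperone regulator of the endoplasmic reticulum, the folds were 3.98 in SSC KO and 5.57 in BCSP KO, with none in WT. The 3 KO H3K4me1 peaks had no base in common at that site. The other 6 sites of the 10 with most KO H3K27ac were nearest to Rad18, Creb1, D030068K23Rik, Ube4bos3, Gm40137 and Gm43403, each with 1 KO library, and at Creb1 a WT library had a peak too. Of these 10 nearest genes 6 were tested, and none passed in edgeR. The H3K27ac peak with the highest fold on any gained site, 7.85 at percentile 99.8 of its list, was in BCSP WT at chr9:41207160-41208300, near 1700063D05Rik, named here after its value was seen.

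Genes nearest to the gained sites passed the main RNA test about as often as all genes did, but more often in some alternative fits given at the end. RNA was compared as the KO effect averaged over the 3 populations, with edgeR over 17494 genes, of which 1.17% passed an adjusted p of 0.05, 0.966% higher and 0.206% lower in KO. Of the 1661 nearest genes, 1228 were in the count table and 830 had enough counts to be tested. In KO cells 8 of these rose (0.964%) and 2 fell (0.241%), 10 in all (1.2%). An unadjusted p under 0.05 was held by 20.2% of them and by 19.6% of all genes tested. Of 9981 tested genes nearest to shared regions 137 passed (1.37%), and of 2300 near regions with 1 WT peak 19 passed (0.826%). In bulk samples, fewer cells of a type and less RNA per cell cannot be told apart. The median difference of the 830 genes was -0.23 log2, against -0.09 over all genes tested, -0.10 near shared regions and -0.21 near regions with 1 WT peak. It was below that of all genes in all 6 KO libraries, from -0.06 against -0.01 in BCSP KO replicate 1 to -0.68 against -0.49 in SSC KO replicate 2. Reads fell in 13987 genes in SSC KO replicate 2 and in 20965 to 23831 genes in each of the other 11 libraries. Nearest genes were also less expressed than those near shared regions, with a median of 3.14 CPM in KO and 3.6 CPM in WT, against 7.48 CPM in KO and 7.68 CPM in WT. The part of expression level or of that library in the lower median was not tested.

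The 10 calls depended on single libraries, while the differences themselves kept their direction. All of them were lost when any 1 of the 6 WT libraries, pBCSP KO replicate 2 or BCSP KO replicate 2 was left out, or SSC as a whole, where 0 genes passed in edgeR over the whole table (2242 to 3684 at an unadjusted p under 0.05). With 1 library left out in turn, the log2 difference stayed between 3.17 and 4.06 for Syt8, between -2.79 and -2.18 for Fkbp5 and between -1.91 and -1.66 for Stk32b, and none of the 10 genes changed sign in any of 18 alternatives. The alternatives reuse the libraries by which the genes were picked, so a kept sign is no separate support. Libraries with the same number deviated together across the populations of a genotype (r = 0.28 to 0.488 across genes, which are not independent replicates). When counts were summed over populations, 0 genes passed in edgeR (1505 at an unadjusted p under 0.05). Without SSC KO replicate 1, 335 of 866 nearest genes passed (38.7%), as did 32% of all genes.

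Of the 8 nearest genes that rose, 1 had its start inside a gained site. This was H2-DMb1 (ENSMUSG00000079547), a chaperone that loads peptides onto MHC class II molecules, with its start at 34153191 in the site chr17:34152646-34153624. The site had folds of 2.82 in SSC KO, 2.42 in pBCSP KO and 2.84 in BCSP KO, and an H3K4me3 peak in BCSP KO with a fold of 4.02, at percentile 22.4 of its list. Its RNA was at 18.1, 51.7 and 216 CPM (lowest, median and highest of 6 KO libraries), against 5.61, 10.8 and 23.1 CPM in WT libraries. The groups overlapped only through SSC, where replicate 1 was at 18.1 CPM in KO and 23.1 CPM in WT. On average it rose by 2.15 ± 0.37 log2 (adjusted p = 0.0421, 6 of 6 KO libraries above the WT mean of their population). The neighbouring copy H2-DMb2 is a close paralog, so counts may have been split between them, and its difference did not pass (adjusted p = 0.295). The leukocyte markers summed to between 12.5 and 33 CPM in KO libraries and between 7.84 and 19.7 CPM in WT libraries, none of the 5 tested genes of that list passed in edgeR, and Ptprc was at 0 to 0.426 CPM in KO and 0 to 0.579 CPM in WT. Of the class II chains, H2-Aa was at 0 to 0.426 CPM in KO and 0 to 0.267 CPM in WT. H2-Ab1 was at 20.6 to 232 CPM in KO and 7.15 to 48.1 CPM in WT, with 6 of 6 KO libraries above the WT mean of their population, and its difference of 2.31 ± 0.47 log2 missed the threshold (adjusted p = 0.0567, edgeR). Their part in the H2-DMb1 result was not tested.

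Syt8 (ENSMUSG00000031098), a synaptotagmin, was at 29.9, 67.6 and 205 CPM in KO libraries and 2.65, 4.79 and 21.1 CPM in WT libraries, which did not overlap. It rose by 3.44 ± 0.50 log2 (10.9-fold, adjusted p = 0.0312). Its site, chr7:142465224-142465999, is 28777 bases from the Syt8 start and inside Lsp1, a gene of an actin-binding protein that also rose, by 0.94 ± 0.18 log2 (adjusted p = 0.049). Syt8 has the nearest start among those used here, which do not cover every gene. Whether the Lsp1 start is nearer was not tested. Zfp648 (ENSMUSG00000066797), a zinc finger protein gene, was at 15.5, 27.3 and 47.6 CPM in KO libraries and 3.03, 6.98 and 9.74 CPM in WT libraries. These did not overlap either, and the rise was 2.31 ± 0.33 log2 (adjusted p = 0.0279), with the site 22745 bases upstream.

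Prune2 (ENSMUSG00000039126) was at 50, 79.9 and 104 CPM in KO libraries and 16.5, 22.4 and 42.1 CPM in WT libraries. Groups did not overlap, and it rose by 1.65 ± 0.26 log2 (adjusted p = 0.0346). Its site, chr19:16997432-16998270, is inside the gene and had H3K4me3 in SSC KO, BCSP KO and BCSP WT. Vill (ENSMUSG00000038775), a villin-like actin-binding protein, rose by 1.48 ± 0.24 log2 (adjusted p = 0.0357), at 59.5, 97.5 and 138 CPM in KO libraries and 21.1, 33.2 and 62.2 CPM in WT libraries. Its groups overlapped, since SSC WT replicate 1 at 62.2 CPM was above BCSP KO replicate 1 at 59.5 CPM. The site lies in Ctdspl, 54679 bases upstream of Vill.

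Shisa4 (ENSMUSG00000041889) rose by 1.30 ± 0.25 log2 (adjusted p = 0.049) and Aff3 (ENSMUSG00000037138), a gene of the super elongation complex family, by 1.05 ± 0.20 log2 (adjusted p = 0.0494). Shisa4 was at 48.9, 79.3 and 153 CPM in KO libraries and 21.2, 30.3 and 66.6 CPM in WT libraries, and Aff3 at 36.6, 57.2 and 95.7 CPM in KO libraries and 20.7, 28.7 and 44.1 CPM in WT libraries. Both genes overlapped between genotypes. The Aff3 site, chr1:38591056-38592046, is inside the gene, and the Shisa4 site is 5727 bases upstream of its start. Tceal9 (ENSMUSG00000042712), on the X chromosome, rose by 0.83 ± 0.15 log2 (adjusted p = 0.0472), at 605, 735 and 1112 CPM in KO libraries and 374, 427 and 495 CPM in WT libraries. Its groups did not overlap, and its site, chrX:136246346-136247201, lies 1693 bases into the gene with H3K4me3 in all 6 lists. Of 562 tested X-linked genes, with a median of 0.04 log2, 6 rose and 0 fell. Over all 17494 genes tested 0.966% rose and 0.206% fell.

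The 2 nearest genes that fell were Stk32b and Fkbp5. Stk32b (ENSMUSG00000029123), a serine/threonine kinase, was at 11.9, 19.3 and 26.7 CPM in KO libraries and 36.7, 70.4 and 94.6 CPM in WT libraries, with no overlap, and fell by 1.78 ± 0.20 on the log2 scale (adjusted p = 0.0244). Fkbp5 (ENSMUSG00000024222), which encodes a co-chaperone that acts on the glucocorticoid receptor and is itself induced by glucocorticoids, was at 8.94, 24.4 and 45.6 CPM in KO libraries and 76.9, 136 and 194 CPM in WT libraries. It fell by 2.40 ± 0.41 on the log2 scale (adjusted p = 0.0418), also with no overlap. The Stk32b site, chr5:37642248-37642828, is 131 bases from a WT H3K4me1 peak, and the Fkbp5 site, chr17:28438345-28439076, is 47439 bases into the gene. All 10 genes moved the same way in 6 of 6 KO libraries relative to the WT mean of their population. They were picked by the average over these same libraries, which favours such agreement.

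**Figure D5:**
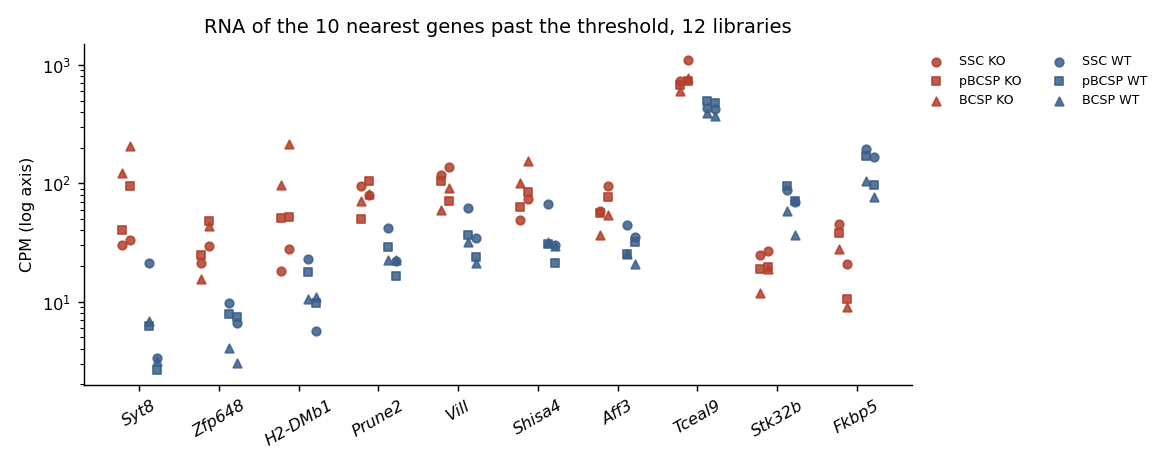
RNA level (CPM, log axis) in 12 libraries of the 10 genes nearest to a gained site that passed the test, KO left of WT, ordered by log2 difference. Symbols mark the population and each point is 1 library. Syt8 has the largest log2 difference among the genes that rose, at 29.9 to 205 CPM in KO and 2.65 to 21.1 CPM in WT.

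Genes of the lists on limb and cartilage biology and of the marker lists had a gained site as neighbour about as often as other genes. Of 198 listed genes 137 were nearest to some merged region, and 10 of these (7.3%) were nearest to a gained site, against 7.4% of all genes nearest to any merged region. Among 33 limb and skeletal transcription factors these were Sox6, Msx2 and Meis1, and among 39 signalling genes of the growth plate Gli2, Bmpr1b, Bmpr2, Dkk1 and Jag1. Of 19 genes of Ptip and H3K4 methylation it was Kmt2c, and of 8 leukocyte markers Ptprc. The lists of glycolysis and hypoxia (25 genes), chondrocyte (18), osteoblast (10), stromal progenitor (9) and hypertrophic chondrocyte (6) markers had 0, as did the marker lists of blood vessel (endothelial, pericyte), nerve (Schwann cell, neuron), adipocyte, tendon, osteoclast, erythroid and skeletal muscle cells. In the average comparison 14 of 25 tested glycolysis and hypoxia genes and 12 of 18 chondrocyte genes rose. So did 2 of 39 signalling genes, 1 of 33 transcription factors and 1 of 4 Schwann cell markers, against 0.966% of all genes tested. Of the Ptip and H3K4 methylation genes only Paxip1 passed, which fell by 4.52 ± 0.76 on the log2 scale (edgeR, adjusted p = 0.0396). No gene of the other lists passed. None of the genes that rose here was nearest to a gained site, and they are too few to read this against the 7.4% above. The chondrocyte markers summed to between 84579 and 135343 CPM in KO libraries and between 42347 and 121082 CPM in WT libraries, and the osteoblast markers to between 3546 and 22874 CPM in KO and between 15171 and 47313 CPM in WT. Their part in the RNA of the nearest genes was not tested.

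Sox6, which acts with Sox5 and Sox9 in cartilage, has sites at chr7:115961309-115962674 and chr7:116019996-116021327, both inside the gene. At the second of these the 3 KO peaks had no base in common. Sox6 RNA was at 71.9, 86.2 and 111 CPM in KO libraries and 29.7, 57.1 and 71.2 CPM in WT libraries, with no overlap, and the difference of 0.76 ± 0.17 log2 missed the threshold (adjusted p = 0.0727). Jag1, a Notch ligand, had a difference of -1.49 ± 0.71 log2 (adjusted p = 0.28), with 0.887 to 45.2 CPM in KO libraries and 43.5 to 66.3 CPM in WT libraries. Meis1, a homeobox factor of the proximal limb, had -0.67 ± 0.25 log2 (adjusted p = 0.192). Msx2, with sites 17609 bases downstream and 15004 bases upstream of its start, had -1.09 ± 0.81 log2 (adjusted p = 0.486) at 6.19 CPM or less in every library. The hedgehog effector Gli2 had 0.36 ± 0.45 log2 (0.683), the BMP receptors Bmpr1b and Bmpr2 -0.33 ± 0.28 (0.531) and -0.52 ± 0.30 (0.365), the Wnt inhibitor Dkk1 -1.42 ± 1.30 (0.577) and Kmt2c -0.47 ± 0.30 (0.413). Ptprc was not tested for low counts. Adjusted p-values in this paragraph are from edgeR.

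Among genes with 3 sites, or with their start in a site, only H2-DMb1 passed the RNA test. Of the 6 genes with 3 sites, Tab2 had -0.54 ± 0.20 log2 (adjusted p = 0.183), Ltbp1 -0.37 ± 0.17 (0.257), Ccser2 0.05 ± 0.14 (0.876) and Arap2 -0.53 ± 1.34 (0.857), while Pakap and Gm39208 were not tested. Of the genes with a start inside a site 29 were tested, with a median difference of -0.54 log2. Hoxb4 was at 0.832 CPM or less in KO libraries and at 0.843 CPM or more in WT libraries, with a difference of -1.79 ± 0.89 log2 that did not pass (adjusted p = 0.303). Fam110a, with 4.78 to 12.1 CPM in KO libraries and 5.99 to 22.9 CPM in WT libraries, had -0.42 ± 0.27 log2 (0.413). Grik3 was between 0 and 0.183 CPM in KO libraries and between 0 and 0.346 CPM in WT libraries, where a count of 0 allows up to 0.208 CPM. Xpnpep2 had -1.45 ± 1.04 log2 (0.467). Pcolce2, at 1 of the strongest sites, had 1.37 ± 0.32 log2 (0.0757), with 329 to 517 CPM in KO libraries and 96.4 to 367 CPM in WT libraries.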

How the data were processed

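Whole-number read counts per gene of 12 RNA libraries and the peak lists of 24 ChIP libraries were used as deposited by the authors. Libraries held 15495915 to 22670899 counts. Per the submitters' processing notes MACS2 2.2.6, featureCounts 2.0.1, Bowtie2 2.3.5.1, Trim Galore 0.6.6 and SAMtools 1.9 were used on GRCm38. Not given in the sources used here are settings, peak cutoffs, strand and the treatment of reads shared between genes. Per peak, the authors deposited a score, a fold enrichment (a ratio), a −log10 p and a −log10 q, which were used only to describe, rank or filter peaks within a list. H3K27ac lists are in broad-peak layout in set 1 and in narrow-peak layout in set 2, so pairs were taken within a set. The 12 input libraries were not used here.

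H3K4me1 peaks were merged at 1 shared base. A site's nearest gene has the RefSeq start (GRCm38.p6) nearest to its middle, within 100000 bases. Starts on chromosome 18 are not in the table used here, and some genes elsewhere have none. At the site inside Rspo2, for example, the nearest coding start was 3031977 bases away. Symbols were matched to 20900 of 27025 genes with a start. Counts were scaled by TMM, filtered with filterByExpr and fitted with 1 mean per group in edgeR 4.0.16 (R 4.3.3); the average KO minus WT effect was tested by quasi-likelihood with Benjamini-Hochberg adjustment at 0.05, with DESeq2 1.42.0 as an alternative. Scripts were tested on simulated data. The depth of ChIP libraries is unknown, and intervals and limits for 0 cover counting error only. Pairs of H3K4me3 and H3K27ac lists were compared by exact sign flips.

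Sites, 4 gene lists and 14 marker lists were chosen with earlier results of these data known. Sites named are the 10 with the strongest weakest KO peak, the 5 with most bases under all 3 KO peaks, up to 10 with H3K27ac and up to 5 with H3K4me3 in most KO lists, and 3 on either side of the rule's edge. Of these, 1 site is not reported here. Genes named are nearest genes past the threshold, those of the named sites, listed genes nearest to a site, and Paxip1; others were named after their values were seen. In all, 33 alternatives were planned and 4 were added after seeing the data.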

Additional observations from a re-analysis of the deposited data

How the results depend on the processing

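The count of 2418 sites became 403 with all lists at a -log10 q of 5 or more, 936 with lists of equal length, 0 with only the KO lists at a -log10 q of 5 or more, 13387 without SSC, 9616 without pBCSP and 6971 without BCSP; merging within 500 bases gave 2377, and neither 100 bases of peak in each KO list (2418) nor chromosomes 1 to 19 only (2330, added after seeing the data) moved it by 1.5 times. The 205 RNA calls, 10 of them nearest genes, became 1882 and 109 without the filter (of 32547 and 1111 tested), 1625 and 76 in DESeq2, and 0 and 0 with pBCSP and BCSP only or with counts summed over populations (added after seeing the data); leaving out 1 library gave 0 to 6147 calls and 0 to 335 nearest genes. DESeq2's scaling in edgeR gave 140 and 8. Nearest genes passed more often than all genes without the filter (9.81% against 5.78%) and in DESeq2 (6.84% against 4.99%). Without the filter 24 of them rose and 85 fell, against 859 and 1023 of all genes. In DESeq2 32 rose and 44 fell, against 996 and 629. The shares were 0.964% against 0.8% with DESeq2's scaling and 1.2% against 0.806% with a replicate block. With the replicate number as a block the counts were 141 and 10 (7 of the 10 shared; H2-DMb1, Shisa4 and Aff3 were lost, at edgeR adjusted p = 0.0533, 0.0617 and 0.0572); same-numbered KO and WT libraries correlated by -0.137 to 0.0462, so the numbers were not taken to pair them. Of the nearest genes, 3 of 274 tested passed with starts within 10000 bases (1.09%), against 1.17% of all genes. With sites from lists of equal length 4 of 344 passed (1.16%), and with sites at a -log10 q of 5 or more 4 of 192 (2.08%). Among coding genes only 14 of 1038 passed (1.35%), and among genes whose span holds a site 10 of 974 (1.03%). The H3K27ac difference of -0.0245 turned to 0.0482 percentage points when taken as the percent of sites with a peak and to 0.0476 in the first set alone; leaving out 1 pair gave -0.0525 to 0.00754. The H3K4me3 difference kept its sign in all 4 alternatives (0.052 to 2.62). The cause of these shifts was not tested, apart from the fewer peaks or samples that each alternative keeps. The gain of H3K4me1 was not tested, since the sites were chosen on those lists; the length of the SSC WT list limits what counts as absent in WT, and a site with no WT peak is one at which none was called.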
